A study of Sus scrofa with 13 samples.

Results

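The liver takes up, stores, breaks down and supplies glucose, and the RNA of 38 genes of this system was followed through liver ischemia and reperfusion in pigs. The genes were taken by symbol, and 36 of the 38 had a row among the 35670 genes of the count table. SLC2A3, a glucose transporter of neurons and blood cells, and PGM1, a phosphoglucomutase of glycogen metabolism, had no row under these symbols and were not analysed here. For the comparison of opposing directions, 24 of the genes with a row were taken as glycolytic and 12 as gluconeogenic, glycogen or hepatic glucose handling genes. Expression was measured in 13 bulk RNA sequencing libraries of livers from female Yorkshire pigs. Baseline was represented by 2 libraries (1a and 2) of biopsies taken before any clamping. The 3 ischemic control livers (1 to 3) had 45 min of complete vascular exclusion and 6 h of reperfusion and received no cells. The 4 arterial and the 4 portal livers (1 to 4 each) had the same ischemia and reperfusion and were given 3000000 human bone marrow-derived mesenchymal stromal cells (BM-MSCs) per kg body weight after reperfusion, into the hepatic artery or the portal vein. All pigs were anaesthetised and ventilated, and before surgery their food had been replaced by water enriched with glucose. The age of the pigs is not given in the sources used here. The study sampled livers both before clamping and at the end of reperfusion, and describes no separate group of baseline animals. The labels do not tell whether a baseline pig also gave a library at 6 h. The main tests treated all libraries as independent. There was no group operated on without ischemia, so that 6 h of surgery and anaesthesia cannot be told apart from ischemia and reperfusion. The infused cells were human, and their reads were not separated from those of the pig.

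Glycolysis splits glucose to pyruvate, and lactate dehydrogenase turns pyruvate into lactate when oxygen is short. The hepatocyte also runs the route backwards to supply the blood with glucose, with enzymes of its own at the steps that glycolysis cannot reverse: pyruvate carboxylase, phosphoenolpyruvate carboxykinase, fructose-1,6-bisphosphatase and glucose-6-phosphatase. It stores glucose as glycogen through glycogen synthase and branching enzyme, and releases it through glycogen phosphorylase. Several steps have a hepatocyte isoform (PKLR, GYS2, SLC2A2) and isoforms of other tissues or of proliferating and hypoxic cells (HK2, PFKP, ALDOA, PKM, LDHA, SLC2A1). Several glycolytic genes are classical targets of the hypoxia-inducible factor HIF1, among them SLC2A1, PFKFB3, ALDOA, PGK1 and LDHA.

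Counts on genes summed to between 18975413 and 35949178 per library. Normalized counts below are counts divided by DESeq2's size factor of the library, and they compare 1 gene between libraries, not levels between genes, since no transcript lengths were used. Groups were compared with edgeR's quasi-likelihood test on all 16481 genes that passed its filter on low counts, and all 36 genes passed. Fold changes are on the log2 scale with their standard errors, and p-values were adjusted over the 16481 genes after Benjamini and Hochberg and called under 0.05. The common biological coefficient of variation was 0.729. The defining hepatocyte markers were detected in all libraries, with a sum of 38412 to 126347 CPM (counts scaled to the total of the library) over 7 genes. In bulk tissue, fewer cells of a type and less RNA per cell cannot be told apart. The livers at 6 h were far from uniform. Over the 500 most variable genes outside this set, the first principal component of the 11 livers held 62.1% of the variance, with control 2, arterial 1, portal 1 and portal 4 at 20.2 to 49.3 and the other 7 livers at -26.4 to -7.46. In these 4 libraries between 7.40% and 20.8% of the tested genes had no read, against 1.78% to 9.19% in the others. Many of the results that touch them are therefore also given without these 4 libraries, a choice made after the data were seen.

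The first question was how glucose metabolism stood after 6 h of reperfusion. No gene passed the threshold between ischemic controls and baseline, in this set or among the 16481 genes tested (0 called, 0% of all; smallest adjusted p 0.978, edgeR, Benjamini-Hochberg). At an unadjusted p under 0.05 there were 3 of the 36 genes, ALDOA, PFKFB3 and LDHA, all with higher values in controls, beside 720 of all genes (4.37%). By sign, 23 of the 36 genes were higher in controls and 13 lower, with a median log2 fold change of 0.15 where the median of all genes was 0.00. Controls and baseline did not overlap at 15 of the 36 genes (41.7%), where 31.1% of all genes did not. Of these, 11 had higher and 4 had lower values in controls, beside 14.8% and 16.3% of all genes. With 3 controls and 2 baseline libraries an exact two-sided permutation test cannot give a p under 0.2, and each of these genes was at that limit. The study used pairwise DESeq2 instead and reported differentially expressed genes in this comparison. DESeq2 fitted to these 2 groups alone called 166 of 35670 genes here, and 0 of the 36.

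The opposing directions of metabolism had different counts, a difference that was not itself tested. Of the 24 glycolytic genes 18 were higher in controls, with a median log2 fold change of 0.49, and the groups did not overlap at 9 with higher values (37.5%) and 1 with lower values (4.17%). Of the 12 gluconeogenic, glycogen and glucose handling genes 5 were higher, with a median of -0.19, and the groups did not overlap at 2 with higher (16.7%) and 3 with lower values (25%). The medians rested on few libraries. Without control 3 the glycolytic median was 0.12, and without baseline 2 the median of the gluconeogenic and glycogen genes was 0.02. Without the 4 libraries that stood apart the medians were 0.67 and -0.07.

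**Figure D1:**
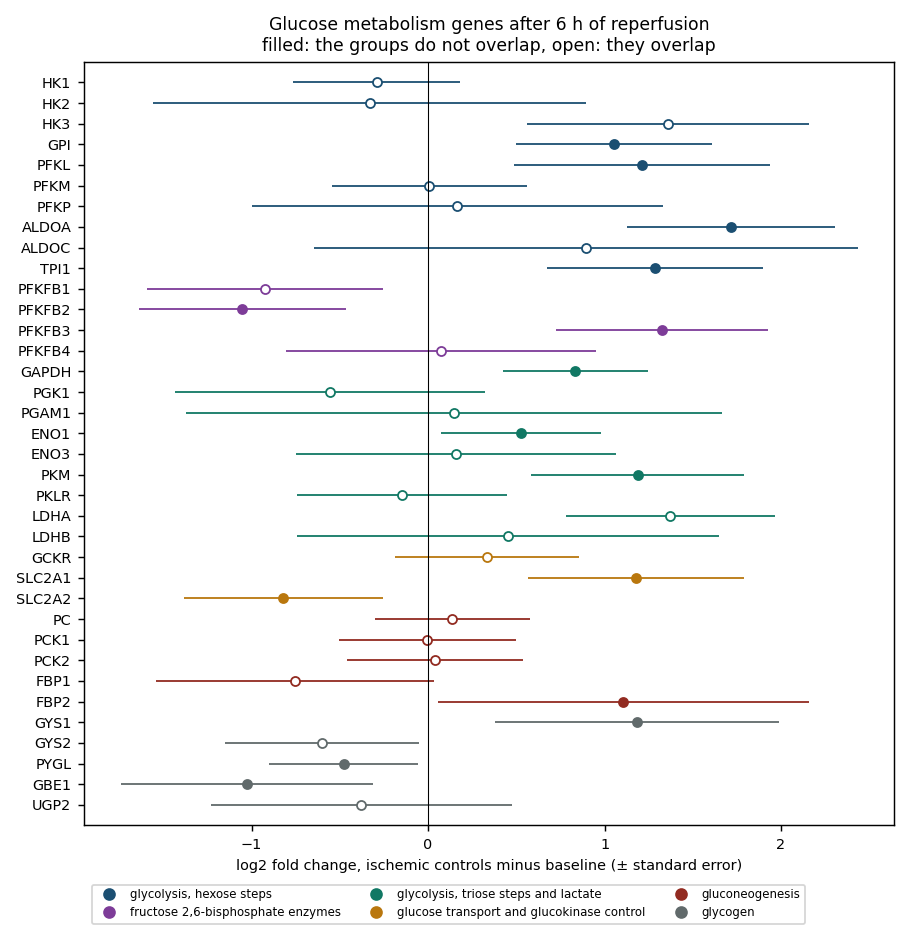
Log2 fold change of the 36 genes between the 3 ischemic controls and the 2 baseline libraries, with standard errors from edgeR, in order of their role. Filled points mark the 15 genes whose groups do not overlap, and ALDOA lies farthest to the right at 1.72.

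The upper part of glycolysis, from glucose to the triose phosphates, held the largest fold change of the set. ALDOA, the aldolase of muscle and many other tissues (chromosome 3 from 18246036 to 18260167 in Sscrofa11.1), had 6906 and 3481 normalized counts at baseline and 14473, 26027 and 11739.8 in the controls. Every control exceeded both baseline libraries, by 3.35 times in the means. The log2 fold change was 1.72 ± 0.59 (unadjusted p = 0.0108, edgeR; adjusted p = 0.978) and 1.35 without the libraries apart. TPI1, triose phosphate isomerase, had 2236 and 1569 at baseline and 3914, 5998 and 4189 in controls, a log2 fold change of 1.29 ± 0.61 that was 1.10 without the libraries apart. PFKL, the phosphofructokinase subunit of liver, had 716 and 412 at baseline against 823, 2175 and 1020.4 in controls, where control 2 was far above the others, with a log2 fold change of 1.21 ± 0.72 and 0.72 without the libraries apart. Without control 2 it was 0.74. GPI, glucose-6-phosphate isomerase, was the other gene of these steps without overlap, at 1.05 ± 0.56 (0.73 without the libraries apart), and was picked for naming after its values were seen.

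The hexokinases had fold changes of both signs. HK3, the hexokinase of myeloid cells, had 406 and 408 normalized counts at baseline and 313, 1719.6 and 1174 in controls, where control 1 was below both baseline libraries and the other 2 were far above them. Its log2 fold change was 1.36 ± 0.80 (unadjusted p = 0.11, edgeR), and 0.88 without the libraries apart or 0.90 without control 2. Markers of neutrophils were higher in the same controls, except for MMP8 in control 2 (6.48 CPM against 7.14 and 5.51 at baseline). Their sum over the 5 of 8 listed genes with a row was 31.7 to 35.8 CPM at baseline and 48.6, 368 and 167 in controls 1 to 3, and the summed level of 7 macrophage markers was 575 to 1103 at baseline and 1046 to 1572 in controls. Every one of these markers was detected in all libraries. The single macrophage markers did not follow their sum. In control 2, C1QA, C1QB, CSF1R and MARCO were above both baseline libraries. CD68 (23.5 CPM), CD163 (136) and VSIG4 (23.9) were below both there. Their part in the HK3 values was not tested. HK2, the hypoxia-responsive hexokinase, was read on few counts, with 27.0 and 109.7 at baseline and 55.4, 24.5 and 79.5 in controls. Controls 1 and 3 lay between the baseline libraries and control 2 just below both, and the log2 fold change of -0.33 ± 1.23 turned to 0.01 without the libraries apart. The other phosphofructokinase subunits were level in the means, PFKM at 0.01 ± 0.55 and PFKP, the platelet type, at 0.16 ± 1.16. PFKP had 173 and 138 at baseline and 128, 98.1 and 296 in controls, so that control 3 alone lay above baseline.

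Fructose 2,6-bisphosphate is the signal that switches phosphofructokinase on and fructose-1,6-bisphosphatase off, and 4 genes encode the enzymes that make and break it. PFKFB3, the inducible form with mostly kinase activity (chromosome 10 from 64776315 to 64859118), had 555 and 263 normalized counts at baseline and 892, 1084 and 1134 in controls. The 3 controls lay close together and above both baseline libraries, with a log2 fold change of 1.33 ± 0.60 (unadjusted p = 0.0442, edgeR; adjusted p = 0.978) that was 1.31 without the libraries apart, 0.85 without baseline 2 and 1.98 without baseline 1a. PFKFB2, another form of the same enzyme, had a fold change of the opposite sign. It had 393 and 486 at baseline and 228, 205 and 202 in controls, without overlap, and a log2 fold change of -1.05 ± 0.59 (-1.01 without the libraries apart). PFKFB1, the liver form, overlapped between groups at -0.92 ± 0.67, and PFKFB4 was at 0.07 ± 0.88.

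Among the later steps, GAPDH, glyceraldehyde-3-phosphate dehydrogenase, had 13177 and 9251 normalized counts at baseline and 15643, 25834 and 19314 in controls. The groups did not overlap, with 1.81 times more in the mean of the controls and a log2 fold change of 0.83 ± 0.41 (unadjusted p = 0.0613, edgeR), which was 0.65 without the libraries apart. GAPDH served as the reference gene of the study's qPCR assays, and its level here varied 2.10 times over the 11 livers at 6 h, the narrowest spread of the genes without a count of 0. ENO1, enolase 1, had 16358 and 11989 at baseline against 24974, 18255 and 17992 in controls, also without overlap, at 0.53 ± 0.46 (0.62 without the libraries apart). At PGK1 and PGAM1, of the steps between GAPDH and ENO1, the groups overlapped. PGK1 was at -0.55 ± 0.88 (-0.11 without the libraries apart) and PGAM1 at 0.15 ± 1.52 (0.69 without them). LDHA, the lactate dehydrogenase subunit that favours lactate (chromosome 2 from 40814163 to 40827284), had 2038 and 1631 at baseline and 7971, 1999.8 and 4048 in controls. Controls 1 and 3 were well above baseline, and control 2 was just below the higher baseline library, so that the groups overlapped. The log2 fold change was 1.37 ± 0.59 (unadjusted p = 0.0352, edgeR; adjusted p = 0.978), and leaving out the libraries apart moved it to 1.73, with no overlap left. Leaving out control 1 moved it to 0.70. LDHB was near the limit of detection, with 2 to 40 reads per library.

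Of the counts on both pyruvate kinase genes, the share of the non-hepatic one was larger in controls than at baseline. PKM, the form of most tissues other than liver, had 771 and 960.0 normalized counts at baseline and 1127, 2021 and 2806 in controls, without overlap, and a log2 fold change of 1.19 ± 0.60 (1.19 without the libraries apart). PKLR, the form of liver and red cells, had 649 and 1022 at baseline and 239, 1212 and 856 in controls, at -0.15 ± 0.60, with controls on both sides of baseline. PKM made up 54.3% (95% Wilson interval 52.0 to 56.6) and 48.4% (46.2 to 50.7) of the counts on both genes at baseline. In controls 1 to 3 it made up 82.5% (80.6 to 84.2), 62.5% (60.3 to 64.7) and 76.6% (75.4 to 77.8), each above both baseline libraries. These intervals cover counting error only. In the infused livers the share lay between 56.6% and 77.1%. Macrophages and neutrophils carry PKM, and the marker sums given above were higher in controls than at baseline, except for macrophage markers in baseline 1a (1103) and control 1 (1046). Single macrophage markers went both ways in control 2, as given with HK3. The part of these markers in the PKM share was not tested.

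The 2 glucose transporters with a row had opposite signs. SLC2A1, which encodes GLUT1, the transporter of red cells, endothelium and hypoxic tissue (chromosome 6 from 168535398 to 168561170), had 497 and 772 normalized counts at baseline and 892, 1322 and 2098 in controls. The log2 fold change was 1.18 ± 0.61 (unadjusted p = 0.0742, edgeR) and 1.25 without the libraries apart. SLC2A2, which encodes the hepatocyte transporter GLUT2 (chromosome 13 from 109592595 to 109614105), had 3907 and 4294 at baseline and 1219.9, 2157 and 3626 in controls, at -0.82 ± 0.56 (-0.75 without the libraries apart, -0.53 without control 1 and -1.26 without control 3). At both genes the groups did not overlap. SLC2A1 was highest in control 3, where the summed stromal markers were also highest at 1771 CPM, 860 of it from COL1A1. Erythroid markers summed to 41.6 to 65.1 at baseline and to 113, 875 and 57.3 in controls 1 to 3. Control 3 thus had the lowest erythroid sum of the controls. The part of these markers in the SLC2A1 values was not tested. GCKR, a regulatory protein of glucose handling in hepatocytes, had 4404 and 3706 at baseline against 4330.5, 7792 and 3451 in controls and overlapped, at 0.33 ± 0.52.

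Of the genes of gluconeogenesis, PCK1, PCK2 and PC were close to level in the means. PCK1, cytosolic phosphoenolpyruvate carboxykinase (chromosome 17 from 57930507 to 57936523), had 30986 and 48490.5 normalized counts at baseline and 23410.2, 46283 and 50042 in controls, with a ratio of the means of 1.00. The 95% interval of its log2 fold change ran from -0.99 to 0.98, wide enough to hold changes of either sign. The mitochondrial form PCK2 was at 0.04 ± 0.50. PC, pyruvate carboxylase, had 11792 and 10286 at baseline against 11357, 14177 and 11144 in controls, at 0.14 ± 0.44. FBP1, the fructose-1,6-bisphosphatase of liver, had 2842 and 7393 at baseline and 3723, 2949 and 2366 in controls. Baseline 2 was far above all the others, and the log2 fold change of -0.75 ± 0.79 became 0.04 without it. FBP2, the muscle form, had 15 to 53 reads in these 5 libraries, and its normalized counts of 11.6 and 29.5 against 41.9, 54.3 and 36.9 did not overlap, at 1.11 ± 1.05 (0.97 without the libraries apart).

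Of the glycogen genes, the hepatocyte forms of the synthase and the phosphorylase had lower means in controls and the muscle form of the synthase a higher one. GYS2, glycogen synthase of liver, had 2343 and 6186 normalized counts at baseline and 1352, 4506 and 2693 in controls. The groups overlapped, the log2 fold change was -0.60 ± 0.55, and it became 0.21 without baseline 2 and -1.06 without the libraries apart. PYGL, liver glycogen phosphorylase, had 3198 and 3841 at baseline against 2115, 2744 and 2758 in controls, without overlap, at -0.48 ± 0.42 (-0.52 without the libraries apart). GBE1, the branching enzyme, had 1972 and 2119 at baseline against 1686, 417 and 854 in controls, also without overlap, at -1.03 ± 0.71 (-0.67 without the libraries apart). Control 1 was near baseline and control 2 was lowest, and leaving out either gave -1.71 and -0.65. GYS1, glycogen synthase of muscle and other tissues, was the only glycogen gene with higher values and no overlap, at 1.19 ± 0.81 (0.90 without the libraries apart). Markers of skeletal muscle were at or near 0, with a sum of at most 0.272 CPM over 3 genes in any library.

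**Figure D2:**
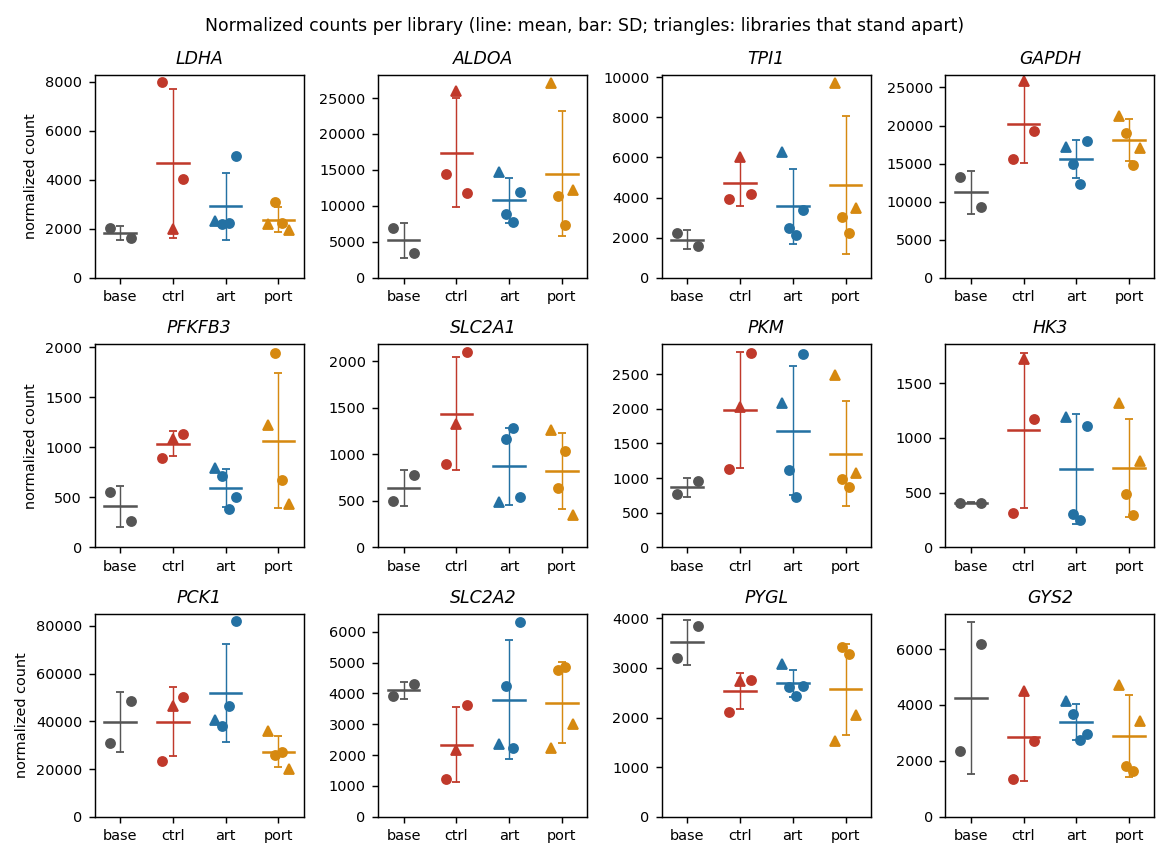
Normalized counts of 12 genes per library in the baseline (base), ischemic control (ctrl), arterial (art) and portal (port) groups, with lines at the group mean and bars of 1 SD. Triangles mark control 2, arterial 1, portal 1 and portal 4. ALDOA, TPI1, GAPDH, PFKFB3, SLC2A1 and PKM have all 3 controls above baseline, SLC2A2 and PYGL have all 3 below, and the 8 infused livers together overlap the controls in every panel.

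The 4 libraries that stood apart differed from their groups in a way that cut across the pathway. PGK1, PGAM1 and UGP2 were picked for naming after their values were seen. The same 4 libraries held the lowest sums of the 7 hepatocyte markers, 38412 to 67213 CPM against 74057 to 126347 in the others. The single markers did not move together. FGB was lowest in these 4 libraries (5927 to 12891 CPM against 22396 to 42051), as was APOB. APOA1 was highest in them (6582 to 10204 CPM against 3186 to 5810). At ALB, CPS1, TTR and SERPINA1 the 4 libraries overlapped the others. The part of these markers in the values below was not tested. PGK1, phosphoglycerate kinase, had 865, 1139, 623 and 1238 normalized counts in control 2, arterial 1, portal 1 and portal 4, and 3488 to 5822 in the other 9 libraries, baseline included. PGAM1, phosphoglycerate mutase, had 31.5, 40.2, 0 and 163 in the same 4 libraries and 266 to 1316 in the others. A count of 0, as in portal 1, allows up to 3 reads, or 3.78 normalized counts. UGP2, which makes the glucose donor for glycogen, had 5306, 9351, 6230 and 14014 against 28719 to 46968. GBE1, the branching enzyme, had its lowest values in the same 4 libraries, 417, 512, 351 and 578 against 812 to 2119 in the others. TPI1 and GAPDH, at the steps before PGK1, were above both baseline libraries in all 4. The same held in the other livers at 6 h except arterial 3 (2124 and 12309). ENO1, the step after PGAM1, was below both baseline libraries in portal 4 alone, at 8921. GAPDH and PGK1 catalyse consecutive steps, and their ratio was 29.9, 15.0, 34.2 and 13.8 in the 4 libraries and 1.94 to 5.29 in the others. TPI1 counted 190, 156 and 21.4 times PGAM1 in control 2, arterial 1 and portal 4, and 2.91 to 9.28 times in the 9 others. These values are a description of libraries that the genes outside this set had already singled out, and were given no test. The library labels carry no batch, date or RNA quality, and whether the material of these livers or of these libraries differed was not tested.

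**Figure D3:**
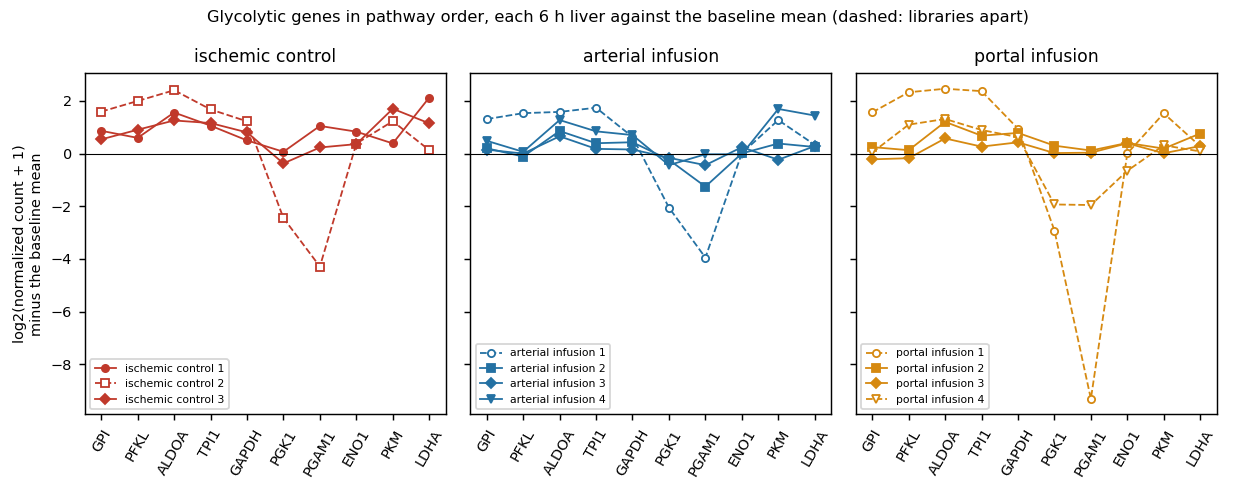
Glycolytic genes in the order of their steps, each line 1 liver at 6 h, as log2(normalized count + 1) minus the mean of the 2 baseline libraries. Dashed lines with open symbols are control 2, arterial 1, portal 1 and portal 4, which lie above baseline from GPI to GAPDH (portal 4 by only 0.04 at GPI) and below it at PGK1 and PGAM1, while the other 7 livers stay between -0.44 and 0.30 at PGK1.

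Averaged over the genes, single livers of a group differed widely in both directions of metabolism. Each gene was centred on its mean over the 13 libraries, and the centred log2(normalized count + 1) was averaged over the 24 glycolytic and over the 12 gluconeogenic and glycogen genes of each library. The glycolytic average was 0.00 ± 0.01 (SD, n = 2) at baseline, 0.33 ± 0.32 (n = 3) in controls, -0.03 ± 0.22 (n = 4) after arterial and -0.22 ± 0.28 (n = 4) after portal infusion. The gluconeogenic and glycogen average was 0.23 ± 0.29, 0.06 ± 0.05, -0.04 ± 0.31 and -0.12 ± 0.17. The difference between the directions was -0.03 and -0.42 in the baseline libraries, and the controls stood above both at 0.12, 0.08 and 0.61. Arterial livers spanned -0.31 to 0.34 and portal livers -0.26 to 0.10. Since these averages run over genes chosen for the description, they were given no test.

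**Figure D4:**
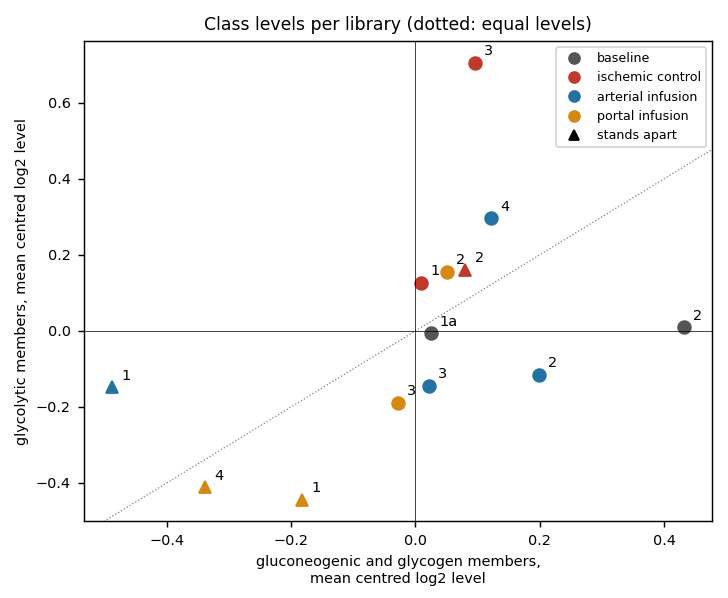
Mean centred log2 level of the 24 glycolytic genes (vertical axis) against that of the 12 gluconeogenic and glycogen genes (horizontal axis) in each of the 13 libraries, numbered as replicates, with triangles for the libraries that stand apart. The 3 controls lie above the dotted line of equal levels and the 2 baseline libraries below it, and the infused livers lie on both sides.

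The second question was whether infused livers differed from ischemic controls. The comparisons with controls share the same 3 control livers, so their values stand side by side here and are not independent. With all 8 infused livers together, 0 genes were called (0% of all; smallest adjusted p over all genes 0.823 and among the 36 genes 1.00, edgeR, Benjamini-Hochberg), while 353 of all genes (2.14%) and 1 of the 36 had an unadjusted p under 0.05 in the same fit. The groups overlapped at all 36 genes, and did not at 0.564% of all genes. By sign, 22 of the 24 glycolytic genes were lower in infused livers, with a median log2 fold change of -0.43, against 7 of the 12 gluconeogenic and glycogen genes with a median of -0.07 and a median of -0.02 over all genes. Leaving out 1 library at a time gave glycolytic medians between -0.54 and -0.34. The gluconeogenic and glycogen median lay between -0.15 and 0.012, turning sign without portal 4, and was 0.089 without the libraries apart, where the glycolytic median was -0.52. Summed macrophage and Kupffer cell markers were 551 to 948 CPM in the infused livers and 1046 to 1572 in controls, without overlap. All 7 were detected in every library. Taken singly, C1QA alone did not overlap (140 to 233 CPM against 273 to 571 in controls). C1QB, CSF1R, CD68, CD163, VSIG4 and MARCO overlapped, and MARCO reached 137 in arterial 1 against at most 13.6 in controls. The part of these markers in the glycolytic values, PKM, HK3 and LDHA included, was not tested.

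LDHA was the gene with the unadjusted p under 0.05. It had 2302, 2173, 2222 and 4972 normalized counts after arterial infusion and 2211, 3097, 2226 and 1931 after portal infusion, against 7971, 1999.8 and 4048 in controls. Of the 8 infused livers 7 lay between 1931 and 3097, and arterial 4 was the exception. Control 2 also lay within that range, so the difference rests on controls 1 and 3. The log2 fold change was -0.88 ± 0.40 (unadjusted p = 0.0452, edgeR; adjusted p = 1.00), and without control 1 it was -0.21, or -1.07 without the libraries apart. The exact permutation test gave p = 0.194, where the smallest possible is 0.0121. SLC2A1 had 486, 1165, 1280.1 and 545 in arterial and 1256, 639.8, 1036 and 348 in portal livers, and a log2 fold change of -0.79 ± 0.42. The infused livers spread from below baseline to just under control 2, and the log2 fold change was -0.44 without control 3 and -0.70 without the libraries apart.

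Taken by route, arterial infusion against controls gave 0 called genes (0%; unadjusted p under 0.05 at 0 of the 36 genes and 1.57% of all genes by edgeR), and the groups did not overlap at 4 of the 36 genes where 3.19% of all genes did not. Each of the 4 was at the smallest exact permutation p of 0.0571. PFKFB3 had 787, 712, 378 and 499.8 after arterial infusion, all below the lowest control at 892, with a log2 fold change of -0.82 ± 0.48. After portal infusion it spread over 1217, 1944, 668 and 434. PC, pyruvate carboxylase, had 6759.8, 6346, 8435 and 9207 after arterial infusion, again all below controls, at -0.67 ± 0.36, and 10686, 11424, 16823 and 7363 after portal infusion. ENO1 had 14172, 14083, 16604 and 13777 after arterial infusion and was at -0.49 ± 0.37, a narrow gap to the lowest control at 17992. PFKFB2 was the single gene with higher values, with 259, 261, 331 and 237 and a log2 fold change of 0.35 ± 0.50. The arterial means of PFKFB3, PFKFB2 and ENO1 lay between those of baseline and controls, and the difference from baseline was not tested for this route alone. Without the libraries apart the log2 fold changes against controls were -0.94 for PFKFB3, -0.50 for PC, -0.54 for ENO1 and 0.36 for PFKFB2. ENO1 was at -0.28 without control 1, and PFKFB2 at 0.22 without arterial 3.

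Portal infusion against controls gave 0 called genes (0%; unadjusted p under 0.05 at 1 of the 36 genes and 2.79% of all genes by edgeR) and no overlap at 2 of the 36 genes (5.56%), beside 3.72% of all genes. HK1, the widely expressed hexokinase, had 432, 407, 466 and 244 after portal infusion against 506, 697 and 759 in controls, at -0.78 ± 0.40 (-0.52 without the libraries apart). Its arterial values were 369, 589, 501 and 1037. FBP2 had 36.5, 26.2, 8.03 and 15.9 against 41.9, 54.3 and 36.9 in controls, on 8 to 29 reads, at -1.08 ± 0.85 (-1.19 without the libraries apart). LDHA was at -1.04 ± 0.47 (unadjusted p = 0.0434, edgeR; adjusted p = 1.00), on the same control libraries as before. It was -0.36 without control 1 and -1.17 without the libraries apart.

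The third question was whether the route of infusion mattered. Between arterial and portal infusion 0 genes were called (0%), 396 of all genes (2.4%) and 2 of the 36 had an unadjusted p under 0.05 in edgeR, and the groups did not overlap at 1.41% of all genes. Of the 36 genes PCK1 alone did not overlap. It had 40489, 37998, 46641 and 82089 normalized counts after arterial infusion and 36106, 25754, 27299.6 and 20105 after portal infusion, the lowest arterial liver standing only just above the highest portal one. The log2 fold change was 0.95 ± 0.39 with a 95% interval of 0.18 to 1.72 (unadjusted p = 0.0288, edgeR; adjusted p = 1.00). The exact permutation p was 0.0286, the smallest that 4 against 4 livers can give. Without the libraries apart the log2 fold change was 1.04, and leaving out 1 liver at a time gave 0.64 to 1.09. Against the controls, whose values of 23410.2, 46283 and 50042 overlapped both groups, it was 0.38 ± 0.42 for the arterial and -0.58 ± 0.42 for the portal route. GCKR, with 3210.3, 4322, 4062 and 4595 after arterial and 14917, 3857, 5258 and 6817 after portal infusion, had an unadjusted p of 0.0476 at -0.87 ± 0.40 (edgeR; adjusted p = 1.00). Portal 1 held most of that difference, and without it the log2 fold change was -0.39, or -0.09 without all the libraries apart. PCK1 and GCKR are both genes of the hepatocyte, whose 7 markers summed to 67213 to 114552 CPM after arterial and 38412 to 96868 after portal infusion. The routes overlapped in this sum and at each of the 7 markers. The part of these markers in the PCK1 values was not tested.

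At all the other representatives the routes overlapped. HK3 had 1191, 303, 252 and 1104 normalized counts after arterial and 1318, 482, 293 and 788 after portal infusion. Neutrophil markers summed to 330 and 249 CPM in arterial livers 1 and 4, to at most 35.0 in arterial livers 2 and 3, and to 141, 100, 26.2 and 91.7 in portal livers 1 to 4, and HK3 was highest in arterial 1, arterial 4 and portal 1, the infused livers with the highest of these sums. Their part in the HK3 values was not tested. PKM had 2083, 1123, 733 and 2793 in arterial and 2488, 983, 869.8 and 1072 in portal livers. GAPDH had 17146, 14903, 12309 and 18001 in arterial and 21309, 19061, 14869 and 17048 in portal livers, a narrow band. FBP1 had 1499, 5994, 6427 and 1696 in arterial and 672, 2911, 3572 and 932 in portal livers, a spread of 9.56 times over the livers at 6 h. SLC2A2 had 2359, 4249.7, 2232 and 6330.2 in arterial and 2224, 4749, 4851 and 3001 in portal livers. The infused livers reached from control levels to above baseline at this gene. PYGL had 3076, 2616, 2431 and 2634 in arterial and 1534, 3418, 3273 and 2044 in portal livers, and GYS2 had 4153, 3673, 2759.8 and 2965 in arterial and 4696, 1807, 1623 and 3420.4 in portal livers. The groups of the next 3 genes overlapped as well, and 2 of them held a count of 0. PKLR had 944, 733, 534 and 828 in arterial and 1099, 566, 269 and 822 in portal livers, HK2 40.2, 27.9, 42.2 and 84.9 in arterial and 22.7, 30.8, 42.1 and 0 in portal livers, and PFKP 41.9, 57.6, 122 and 179 in arterial and 0, 102, 46.1 and 71.2 in portal livers. The counts of 0 were HK2 in portal 4 and PFKP in portal 1, both among the libraries apart, and allow up to 3.68 and 3.78 normalized counts.

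Set against baseline, the 8 infused livers gave 0 called genes (0%; unadjusted p under 0.05 at 1 of the 36 genes and 4.14% of all genes by edgeR). The groups did not overlap at 2 of the 36 genes (5.56%), beside 10.1% of all genes. ALDOA had 14708, 8897, 7738 and 11869 after arterial and 27059, 11312, 7316 and 12211 after portal infusion, all above baseline, with 2.43 times the baseline mean, a log2 fold change of 1.21 ± 0.52 (0.87 without the libraries apart) and an exact permutation p of 0.0444, the smallest possible here. GBE1 had 512, 1128, 1459 and 812 in arterial and 351, 1774, 1553 and 578 in portal livers, all below baseline, with 0.50 times the baseline mean and the same exact p. Without the libraries apart its log2 fold change was -0.55. That of ALDOA was 0.76 without baseline 2. Both genes were named because their groups did not overlap, and this alone sets the exact p at its smallest value. With the controls included, ALDOA was above baseline in all 11 livers at 6 h and GBE1 below it in all 11. The share of all genes with such a pattern over the 11 livers was not computed. The 2 baseline libraries are common to this comparison and to that of the controls, so the comparisons are not separate evidence.

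**Figure D5:**
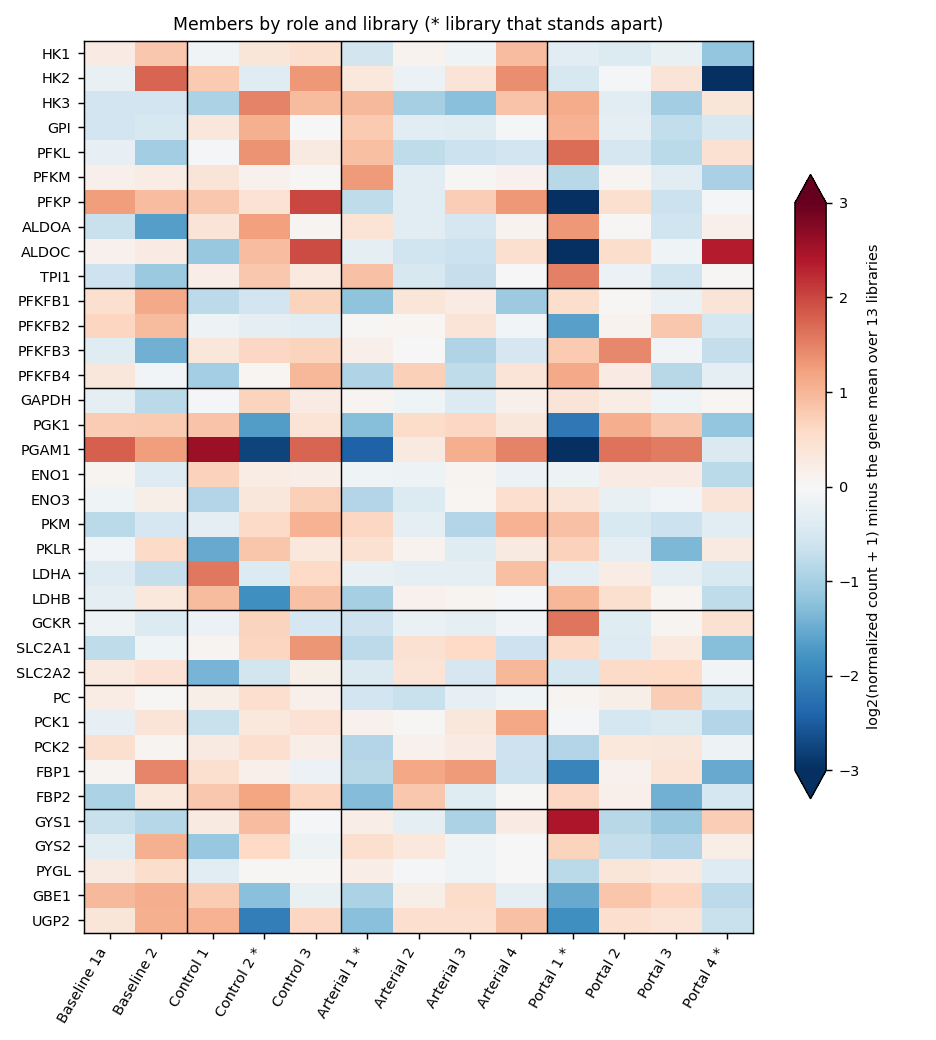
All 36 genes with a row, ordered by role, in the 13 libraries, as log2(normalized count + 1) minus the mean of the gene over all libraries, with the colour scale ending at -3 and 3. Asterisks mark control 2, arterial 1, portal 1 and portal 4, where PGK1, PGAM1, GBE1 and UGP2 are low. GYS1 is above its mean in them, and also in control 1 and arterial 4.

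Variation between livers was wide throughout. Over the 11 livers at 6 h, the highest value of a gene was a median of 4.61 times the lowest among the 30 genes with a mean of at least 100 normalized counts, and 4.16 times among the 10210 tested genes at that level, with genes that had a count of 0 in a liver left out of both medians. The ratio ranged from 2.10 for GAPDH to 11.7 for GYS1, which portal 1 alone carried to 2519.7 normalized counts. It exceeded 5 at 14 of the 36 genes, and 4 genes had a count of 0 in at least 1 liver.

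The wider pathway showed the same lack of calls. A further list held 81 gene symbols of glycolysis, glucose release, glycogen turnover, pyruvate and lactate handling. G6PC1 was also listed in it as G6PC, and PPP1R3C is also among the regulators below. Of these, 73 were tested, and 0 had an adjusted p under 0.05 between controls and baseline (edgeR, Benjamini-Hochberg). The groups did not overlap at 11 with higher and 4 with lower values, to be read beside the 14.8% and 16.3% of all genes. Those with the largest fold changes were SLC16A3, which encodes the lactate exporter MCT4 (29.3 and 19.0 normalized counts at baseline, 47.5, 179 and 198 in controls, 2.51 ± 1.20 on the log2 scale), SLC25A1, the mitochondrial citrate carrier (1.42 ± 0.80), and G6PC3, the ubiquitous glucose-6-phosphatase (1.29 ± 0.82). The last pair rested in part on control 2, without which SLC25A1 was at 0.85 and G6PC3 at 0.46, and SLC25A1 was also at 0.85 without baseline 2. PPP1R3D, a subunit that targets protein phosphatase 1 to glycogen, was lower at -1.41 ± 1.00, and at -0.88 without control 2. Without the libraries apart the log2 fold changes were 2.34 for SLC16A3, 0.83 for SLC25A1, 0.44 for G6PC3 and -0.90 for PPP1R3D. SLC16A3 is carried by leukocytes as well as by hypoxic cells. Its highest control, control 3, and control 2 were those with the higher sums of neutrophil markers. Their part was not tested. At G6PC1 and PDK4, also in this list, the groups overlapped. G6PC1, the last enzyme of glucose release, had 11241 and 15081 at baseline against 11436, 4577 and 11864 in controls. PDK4, which blocks entry of pyruvate into the citric acid cycle, had 577 and 1648 at baseline against 421, 1192 and 2045 in controls.

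All 42 regulators of glucose metabolism with a row, of 45 listed, were tested, and 0 were called. The groups did not overlap at 6 with higher and 4 with lower values in controls, shares no larger than the 14.8% and 16.3% of all genes. EGLN3, an oxygen-sensing prolyl hydroxylase and HIF target, had 60.2 and 34.8 normalized counts at baseline and 209.6, 371 and 379 in controls, with a log2 fold change of 2.73 ± 0.82 (unadjusted p = 0.00465, edgeR; adjusted p = 0.978). NR4A1, an immediate early nuclear receptor, had 77.9 and 276 at baseline against 976, 1600.5 and 453 in controls, at 2.50 ± 0.70. SIK1, a kinase induced by cAMP, had 2035 and 1247 at baseline against 10785, 7470.2 and 5052 in controls, at 2.24 ± 0.68. KLF15, a fasting- and glucocorticoid-responsive transcription factor, had 1382 and 538 at baseline against 2463, 7708 and 3364 in controls, at 2.19 ± 1.17. These 4 were named for the largest fold changes among the regulators whose groups did not overlap in this comparison. That every control stood above baseline follows from this choice. Without the libraries apart the log2 fold changes were 2.63, 2.05, 2.29 and 1.61. DESeq2 fitted to the 5 libraries of the 2 groups alone, an alternative that called 166 genes in all and none of the 36, called these 4 with Benjamini-Hochberg adjusted p of 0.00158, 0.0291, 0.00822 and 0.0467. PPARGC1A, the coactivator of the gluconeogenic program, had 719 and 463 at baseline and 949, 1727 and 539 in controls and overlapped.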

How the data were processed

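RNA of 13 pig liver libraries was sequenced. Per the study's methods, libraries did not keep the strand, reads were mapped to Sscrofa11.1 with HISAT2 and assigned to Ensembl genes with FeatureCounts, and the authors deposited raw counts without normalization. Versions and the handling of reads with several positions are not given in the sources used here, so counts of genes with pseudogenes or close paralogs (GAPDH, PGK1, PGAM1, LDHA, LDHB, ALDOA, ENO1, TPI1, PKM) are uncertain, as are those of genes with an antisense neighbour. A count is a read, not a molecule, and floors cover counting error only.

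Groups came from the labels, and 0 columns lacked a sample. Each library at 6 h was from a different pig per the study, and the sources do not say so for baseline, where the spread may be technical. Tests were edgeR 4.0.16 in R 4.3.3 (filterByExpr, TMM, quasi-likelihood fit of 4 groups over 13 libraries, Benjamini-Hochberg, 0.05), tried on simulated counts first. DESeq2 1.42.0 gave size factors. Exact two-sided permutation tests (scipy 1.17.1) used log2(normalized count + 1). The 95% intervals use the standard error and a normal approximation. Coordinates are those of RefSeq's annotation of the same assembly, where 35 of the 36 genes matched 1 entry.

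The 38 genes, the lists and the genes named were chosen with earlier results of these data known. Values of every library were given for 16 representatives with a row, for up to 3 further genes per comparison with the largest fold change among those without overlap, and for up to 4 genes of each further list. Some genes of these lists are not reported here. Alternatives were DESeq2, edgeR on the compared groups, other normalizations and filters, limma 3.58.1 voom with quality weights, mitochondrial and small RNA genes left out, a replicate block, other scales for the averages, and each library left out.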

Additional observations from a re-analysis of the deposited data

Results flagged for a closer look

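In groups of 4 or 8 livers, a single liver stood far from the rest at 14 of 108 gene and group combinations checked. The measure was the gap to its neighbour relative to the range of its group. All 14 were at the high end. Chance flags about 1 in 20 where values spread evenly to both sides, which was not checked for these counts. The 14 are not independent, since the 8 infused livers include both routes. Portal 1 held the highest value at GCKR (14917 normalized counts, next 6817), ALDOA (27059) and GYS1 (2519.7, next 786) among the infused livers, and at GPI (8187), TPI1 (9709) and PKM (2488) among the portal livers. Arterial 1 was highest at PFKL (1578) among the arterial livers and at PFKM (549) among the infused livers. Portal 4 was highest at ALDOC (72.4), a gene with 0 to 75 reads per library. These 3 libraries are among the 4 that stood apart on genes outside this set.

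Arterial 4 was highest at HK1 (1037) and PCK1 (82089, next 46641) among the infused livers, and at LDHA (4972) among both the arterial and the infused livers, and it did not stand apart on the other genes. It also had 249 CPM of neutrophil markers, 535 of erythroid markers, 567 of endothelial markers (at most 359 in the other 12 libraries) and 1318 of stromal markers (266 to 495 in the other infused livers), and their part in these values was not tested. Arterial 3 was highest at ENO1 (16604, next 14172) among the arterial livers. No effect differed between groups under the same contrast by these criteria.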

How the results depend on the processing

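No gene of the 36 was called under any alternative in any comparison. Unadjusted p-values between controls and baseline depended on the tool. DESeq2 on these groups alone gave p under 0.05 at 11 of the 36 genes and at 2041 of 35670. The smallest adjusted p among the 36 was then 0.0946 (DESeq2, Benjamini-Hochberg). Voom gave 12 of the 36 and 2697 of 16481, with a smallest adjusted p of 0.147 among the 36. Without baseline 2, edgeR gave 0 of the 36. Of 778 alternative values of the 46 fold changes compared, 753 kept their sign and their side of the threshold and 4 passed it (DESeq2 on controls and baseline alone: EGLN3 2.78, NR4A1 2.57, SIK1 2.29, KLF15 2.27). The 21 that changed sign were all between controls and baseline. HK2 was 0.33 with limma's voom and 0.010 without the 4 libraries apart, where GCKR was -0.044. PCK1 was 0.0063 with DESeq2 on all libraries, close to its values with RLE (0.0062) and with upper quartile normalization (0.0080), 0.048 with DESeq2 on controls and baseline, and 0.035 with voom. Leaving out 1 library gave -1.01 to 0.95 for HK2, -0.029 to 0.59 for GCKR, -0.44 to 0.47 for PFKP, -0.58 to 0.27 for PKLR, -0.28 to 0.31 for PCK1, -1.28 to 0.044 for FBP1 and -1.14 to 0.21 for GYS2. Without baseline 2 the sign changed at all of these but GCKR. The cause was not tested.

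Correlations between same-numbered libraries ran from -0.42 to 0.43. They were not set against those of differently numbered libraries, so whether the numbers pair the libraries cannot be told from them. With the replicate block 0 genes were called in each comparison, and PFKP (-0.35) and PKLR (0.053) changed sign. The labels do not tell what same-numbered libraries share.

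Counts over all genes depended on the tool. DESeq2 on all libraries called 5 genes between controls and baseline, 1 between infused and control livers, 4 for the portal route, 1 between routes and 17 between infused livers and baseline. DESeq2 on the compared groups called 166, 3 for the portal route and 16 for infused livers against baseline. Without the filter on low counts, edgeR called 30 between controls and baseline, 19 for infused livers, 11 for the arterial and 14 for the portal route against controls, 5 between routes and 25 for infused livers against baseline. Voom called 49 for infused livers against baseline. Without the libraries apart, 1 gene was called for infused livers and 1 for the arterial route against controls. Leaving out single libraries gave 0 called genes each time. DESeq2 on controls and baseline also moved the median of all genes by 0.11.

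The glycolytic average at baseline moved to -0.034 with a pseudocount of 5, -0.065 on TMM CPM, -0.057 with genes of a mean of at least 100 and -0.092 without the libraries apart, and leaving out 1 library gave -0.0049 to 0.0091. The gluconeogenic and glycogen average of controls moved to -0.012 and -0.051 under the last pair of settings. A minimum of 10 counts in every library left 30 of the 36 genes. With 2 baseline libraries, no single value there can be checked against a group, and few reads limit HK2, ALDOC, ENO3, LDHB and FBP2.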
